A study of Mus musculus with 12 samples.

Results

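The 10 genes described here act around the prostaglandin pathway but were not edited in this study. They are *Pla2g4a* and *Pla2g6* (phospholipases), *Ptges2* and *Ptges3* (PGE2 synthases other than mPGES-1), *Cbr1* and *Cbr3* (carbonyl reductases), *Ptgr1* and *Ptgr2* (prostaglandin reductases), and *Abcc4* and *Slco2a1* (export and uptake). They were chosen by name and role among 30705 gene names, with earlier results of these data known. The number of them called, set beside the share of all genes, is therefore no independent test. All 10 were found and passed the filter on low values, as did 11282 genes in all. RNA-seq was performed on 12 samples of murine BrafV600E melanoma cells in culture, 3 of scramble cells, the control, and 3 of each line in which *ptgs1*, *ptgs2*, or *ptges* was knocked out. Every group shares the background of the parent line, which came from a C57BL/6 mouse with the alleles Braf+/LSL-V600E, Tyr::CreERT2+/o, and p16INK4a-/-, in which Cre is driven by the tyrosinase promoter of pigment cells. The knockouts were made with CRISPR/Cas9 kits followed by puromycin, and subclones were grown by limiting dilution. The study's text describes the 3 samples of a line both as different subclones and as independent samples. The p-values therefore measure the spread among 3 samples of 1 line in culture. Whether that is a spread among subclones is not settled. Changes that came with cloning cannot be told apart from effects of the edited gene.

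Prostaglandins start with arachidonic acid, which phospholipases release from membranes. The cyclooxygenases COX-1 (*Ptgs1*) and COX-2 (*Ptgs2*) turn it into PGH2, and terminal synthases such as mPGES-1 (*Ptges*) turn PGH2 into PGE2. The genes around these steps supply the substrate, offer other routes to PGE2, reduce PGE2 and its metabolites, and carry prostaglandins across the cell membrane.

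Levels are mRNA levels as deposited, in RPKM, which scales reads to the length of the transcript and the size of the library. The depth estimated from the steps between low values was 13.4 to 17.0 M reads per sample. Each target gene was lowest in its own line, at 14.30 to 16.91 RPKM against 141.65 to 164.17 in scramble samples for *Ptgs1*, 76.13 to 84.62 against 748.76 to 776.77 for *Ptgs2*, and 34.83 to 41.01 against 75.01 to 79.82 for *Ptges*. Of 7 melanocyte markers, *Sox10*, *Tyrp1*, *Dct*, and *Mlana* were listed at 0 in all samples and *Mitf* was at 0.97 to 3.35 RPKM, so most markers of the labelled lineage were absent or low. The summed level of 4 fibroblast markers was 8.20 to 8.68 RPKM in scramble, 10.68 to 12.07 in *ptgs1*-KO, 3.63 to 4.75 in *ptgs2*-KO, and 5.01 to 5.97 in *ptges*-KO samples, nearly all of it *Pdgfra*, with *Lum* and *Dcn* at 0. Of the immune markers, *Cd68* was at 0.63 to 2.05 RPKM, *Ptprc* at most 0.13, and *Itgam* at most 0.03, and *Cd3e*, of T cells, was listed at 0 in all samples. The part of these differences in the results was not tested, and in bulk RNA fewer cells of a type and less RNA per cell cannot be told apart.

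Differences were tested with limma on log2(RPKM + 1) over all 11282 genes, and a gene is called higher or lower at a Benjamini-Hochberg adjusted p under 0.05. Log2 fold changes are on this scale and understate the change of genes at low levels. In *ptgs1*-KO cells 2 of the 10 genes were called against scramble cells, *Cbr1* lower and *Cbr3* higher, where 9.26% of all genes tested were called. In *ptgs2*-KO cells 2 were called, *Ptgr2* lower and *Ptges3* higher, against 11.1% of all genes. In *ptges*-KO cells 4 were called, *Pla2g4a*, *Ptges3*, *Cbr3*, and *Ptgr1*, all higher, against 26.3% of all genes in either direction and 11.9% in the higher direction. The share of higher genes among all calls in *ptges*-KO cells depended on the scaling and was 45.2% as deposited, 54.5% after median ratio scaling, 53.8% after quantile normalization, and 31% after scaling without the 20 highest genes, while the 4 calls held under each. Over the 4 groups together, 6 of the 10 genes passed the F test of limma, against 38.6% of all genes. *Pla2g6*, *Ptges2*, *Abcc4*, and *Slco2a1* did not pass it. Counting genes whose 3 values did not overlap those of scramble, there were 3 of the 10 in *ptgs1*-KO (26.9% of all genes), 5 in *ptgs2*-KO (35.1%), and 4 in *ptges*-KO cells (43.3%).

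**Figure D1:**
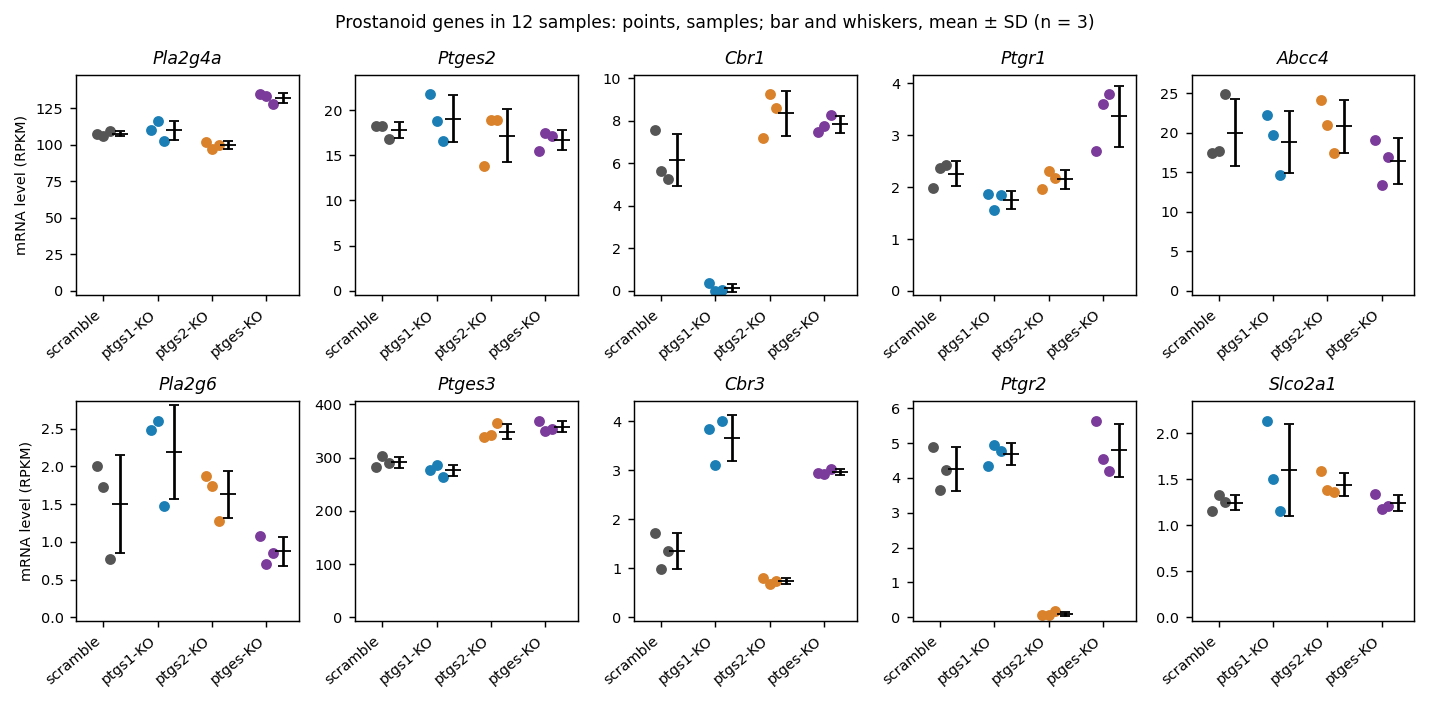
mRNA level in RPKM (linear axis from 0, a separate scale for each gene) of the 10 genes in each of the 12 samples, with the mean and SD of 3 samples beside the points. *Cbr1* is at 0 to 0.37 RPKM in the *ptgs1*-KO samples and *Ptgr2* at 0.06 to 0.17 RPKM in the *ptgs2*-KO samples, while *Pla2g4a* is highest in the 3 *ptges*-KO samples.

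Of the 10 genes the carbonyl reductase *Cbr1* had the widest range of group means. *Cbr1* codes for an NADPH-dependent reductase that can reduce the ketone of PGE2 to give PGF2α, and *Cbr3* for a close relative with a narrower range of substrates. On GRCm38 *Cbr1* lies on chromosome 16 from 93605853 to 93610505 and *Cbr3* next to it from 93683215 to 93690990, both on the plus strand and each with 3 exons. The bases before the RefSeq start of each gene (GRCm38.p6, plus strand) are shown because these neighbours were called in opposite directions in *ptgs1*-KO cells, with CpG sites, where cytosine can be methylated, in capitals. The first stretch, chr16:93607587-93607836, holds 6 CpG sites in 250 bases and lies inside the longer GENCODE model of *Cbr1*, and the second, chr16:93682969-93683214, holds 14 in 246 bases.
Cbr1: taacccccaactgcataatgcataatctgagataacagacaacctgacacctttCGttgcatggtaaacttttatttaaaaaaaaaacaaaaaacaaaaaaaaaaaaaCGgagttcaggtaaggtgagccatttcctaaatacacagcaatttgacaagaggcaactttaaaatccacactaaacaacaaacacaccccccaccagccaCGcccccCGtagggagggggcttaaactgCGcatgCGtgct
Cbr3: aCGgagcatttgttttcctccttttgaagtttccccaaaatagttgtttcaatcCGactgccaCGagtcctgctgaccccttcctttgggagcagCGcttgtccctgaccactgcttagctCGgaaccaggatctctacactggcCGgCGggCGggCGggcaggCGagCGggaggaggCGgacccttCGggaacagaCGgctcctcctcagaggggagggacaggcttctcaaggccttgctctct
With the first 50 bases of the transcript included, the 300-base windows held 11 CpG sites for *Cbr1* and 19 for *Cbr3*, where the median of 32851 RefSeq windows was 7. Methylation was not measured here.

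*Cbr1* was at 7.55, 5.64, and 5.26 RPKM in the scramble samples and at 0.37, 0.00, and 0.06 RPKM in the *ptgs1*-KO samples. All 3 *ptgs1*-KO samples were far below every other sample, and the group mean was 2.33% of the scramble mean. At the estimated depth these levels stand for about 7, 0, and 1 reads, or 8 reads against 358 in the scramble samples, a ratio of 2.41% with an exact 95% interval of 1.03% to 4.80% that covers counting error only. *Cbr1* fell by 2.65 on the log2 scale (standard error 0.15, limma adjusted p = 1.18e-07). In *ptgs2*-KO samples *Cbr1* was at 7.18, 9.25, and 8.60 RPKM, and in *ptges*-KO samples at 7.48, 7.75, and 8.26 RPKM. Both groups overlapped the highest scramble sample and were not called, at a limma adjusted p of 0.114 and 0.142.

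*Cbr3* was at 1.73, 0.99, and 1.36 RPKM in the scramble samples and at 3.85, 3.12, and 4.02 RPKM in the *ptgs1*-KO samples, where *Cbr1* was lost. The groups did not overlap, and *Cbr3* rose by 0.99 on the log2 scale (standard error 0.13, limma adjusted p = 0.000311), 2.69 times the scramble mean. It was at 2.94, 2.93, and 3.03 RPKM in the *ptges*-KO samples, again above every scramble sample. It rose there by 0.76 on the log2 scale (standard error 0.13, limma adjusted p = 0.00116), with *Cbr1* not lower. In *ptgs2*-KO samples *Cbr3* was at 0.81, 0.68, and 0.75 RPKM, below every scramble sample, with a log2 fold change of -0.42 that was not called (limma adjusted p = 0.0569). That value stood close to the threshold and passed it under 6 of the alternatives, for instance at 0.0291 without scramble replicate 2 and 0.0313 with a pseudocount of 0.1. In order of group means, *Cbr3* was 3.66 RPKM in *ptgs1*-KO, 2.97 in *ptges*-KO, 1.36 in scramble, and 0.747 in *ptgs2*-KO cells. The first pair of neighbours in this order was not called apart (limma adjusted p = 0.212), nor was the last. *Cbr3* rested on about 12 to 68 reads per sample.

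On the per-length scale of RPKM both reductases can be set side by side. *Cbr3* made up 14.9% to 20.5% of their summed level in scramble samples and 91.2% to 100% in *ptgs1*-KO samples. Its share was 6.85% to 10.1% in *ptgs2*-KO and 26.8% to 28.2% in *ptges*-KO samples, so the 4 groups did not overlap in this share. Together they reached a mean of 7.51 RPKM over the scramble samples (SD 1.53, n = 3) and of 3.81 RPKM over the *ptgs1*-KO samples (SD 0.599, n = 3). No window of 101 bases, the read length, was shared between the *Cbr1* or *Cbr3* transcript and any other gene. The nearest tested genes on either side (named after their values were seen) were *Runx1* and *Morc3*, with log2 fold changes of 0.11 and 0.01 in *ptgs1*-KO cells, and neither was called.

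**Figure D2:**
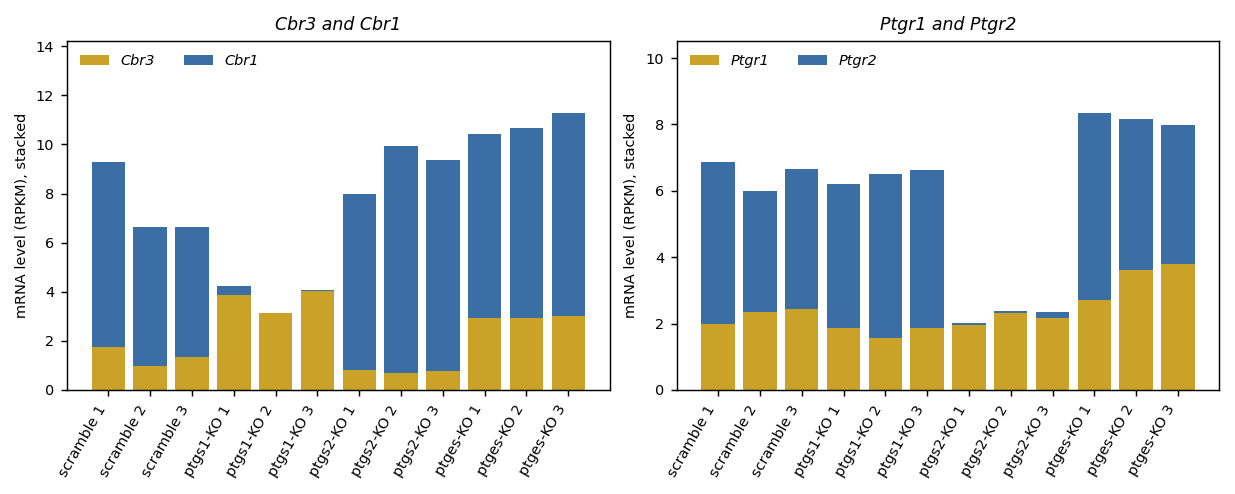
Stacked mRNA levels in RPKM (linear axis from 0, 1 bar per sample) of *Cbr3* and *Cbr1* on the left and of *Ptgr1* and *Ptgr2* on the right. *Cbr1* is nearly absent from the *ptgs1*-KO bars, where *Cbr3* holds 91.2% to 100% of the pair, and *Ptgr2* from the *ptgs2*-KO bars, where *Ptgr1* holds 92.8% to 97.5%.

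The prostaglandin reductases come after the first step of prostaglandin breakdown. PGE2 is first oxidized to its 15-keto form by another enzyme, and *Ptgr1* and *Ptgr2* code for reductases that saturate a double bond of 15-keto prostaglandins. *Ptgr1* also acts on leukotriene B4. *Hpgd*, which codes for an enzyme of the first step, had a mean of 0 RPKM in all 4 groups. Whether PGE2 is broken down by this route in these cells was not tested. *Ptgr2* lies on chromosome 12 from 84285232 to 84315832, plus strand, and *Ptgr1* on chromosome 4 from 58965439 to 58987119, minus strand. The bases before the GENCODE start of *Ptgr2*, chr12:84285046-84285231 (RefSeq, GRCm38.p6, plus strand), are shown because this gene was nearly lost in 1 line, again with CpG sites in capitals; they hold 10 CpG sites in 186 bases.
Ptgr2: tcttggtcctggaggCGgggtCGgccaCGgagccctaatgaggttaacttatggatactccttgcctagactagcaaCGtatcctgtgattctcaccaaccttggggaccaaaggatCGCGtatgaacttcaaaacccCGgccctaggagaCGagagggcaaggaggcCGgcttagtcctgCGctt

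*Ptgr2* was at 4.89, 3.64, and 4.23 RPKM in the scramble samples and at 0.06, 0.06, and 0.17 RPKM in the *ptgs2*-KO samples. All 3 *ptgs2*-KO samples were far below every other sample, at 2.27% of the scramble mean. They stand for about 14 reads in all against 635, a ratio of 2.33% with an exact 95% interval of 1.27% to 3.94% for counting error. *Ptgr2* fell by 2.25 on the log2 scale (standard error 0.13, limma adjusted p = 1.04e-07). The level was 4.33, 4.96, and 4.77 RPKM in *ptgs1*-KO samples and 5.65, 4.54, and 4.19 RPKM in *ptges*-KO samples, both overlapping scramble and not called, at a limma adjusted p of 0.627 and 0.463. An antisense gene, *Gm47484*, covers 32% of the exon bases of *Ptgr2*, and 58.6% of the windows of 101 bases of the *Ptgr2* transcript lie in both. The library kit was directional, but whether the counting used the strand is not given in the sources used here, so reads from both genes may be in its value. The nearest genes *Pnma1* and *Zfp410*, also named after their values were seen, had log2 fold changes of 0.05 and 0.08 in *ptgs2*-KO cells and were not called.

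*Ptgr1* was at 1.98, 2.36, and 2.43 RPKM in scramble, 1.86, 1.56, and 1.85 RPKM in *ptgs1*-KO samples. It was at 1.96, 2.31, and 2.18 RPKM in *ptgs2*-KO samples and at 2.70, 3.61, and 3.79 RPKM in *ptges*-KO samples. The *ptges*-KO samples were above all others. The log2 fold change against scramble was 0.42 (standard error 0.13, limma adjusted p = 0.0271). This call was lost without *ptges*-KO replicate 2 (adjusted p = 0.103 in limma), *ptges*-KO replicate 3 (0.106), scramble replicate 1 (0.0986), or scramble replicate 2 (0.0503). It was also lost with only the 2 groups in the limma model (adjusted p = 0.0517) and in a Tukey test on untransformed values (adjusted p = 0.106). *Ptgr1* was not called in *ptgs2*-KO cells (log2 fold change -0.05, 95% interval -0.32 to 0.22), where *Ptgr2* was nearly lost. Together the pair reached a mean of 6.51 RPKM over the scramble samples (SD 0.454, n = 3) and of 2.25 RPKM over the *ptgs2*-KO samples (SD 0.197, n = 3), and *Ptgr1* held 28.8% to 39.3% and 92.8% to 97.5% of it.

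Among the PGE2 synthases, *Ptges3* codes for p23, which is both a cytosolic PGE2 synthase (cPGES) and a co-chaperone of Hsp90, and *Ptges2* for a membrane-associated PGE2 synthase. On the per-length scale the order of levels in scramble cells was *Ptges3* at 291 ± 10.1, *Ptges* at 77.6, and *Ptges2* at 17.8 ± 0.861 RPKM (SD, n = 3). In *ptges*-KO cells, *Ptges* mRNA at 37.1 RPKM still stood above *Ptges2* at 16.7 RPKM. The mRNA level of an edited gene does not show how much working enzyme is left. The study assessed the protein by Western blotting. *Ptges* was also lower in *ptgs1*-KO cells than in scramble cells (-0.50, limma adjusted p = 0.0011). *Ptges3* lies on chromosome 10 from 128058954 to 128077272 and was the most abundant of the 10 genes.

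*Ptges3* was at 282.28, 302.21, and 289.25 RPKM in scramble and 277.54, 286.13, and 264.44 RPKM in *ptgs1*-KO samples, which overlapped. It was at 338.46, 342.26, and 364.59 RPKM in *ptgs2*-KO and 369.66, 350.42, and 352.94 RPKM in *ptges*-KO samples, all above every scramble and *ptgs1*-KO sample. The log2 fold change against scramble was 0.26 (standard error 0.07, limma adjusted p = 0.0254) in *ptgs2*-KO and 0.30 (standard error 0.07, limma adjusted p = 0.00604) in *ptges*-KO cells. The call in *ptgs2*-KO cells was lost without *ptgs2*-KO replicate 2 (adjusted p = 0.0591 in limma) or 3 (0.0989), or scramble replicate 1 (0.108) or 3 (0.0821). A pseudogene, *Ptges3-ps*, holds nearly all of the 20.2% of windows of 101 bases that the *Ptges3* transcript shares with other genes, so part of this value is uncertain. *Ptges2*, on chromosome 2 and 1.47 Mb from *Ptges*, was at 13.78 to 21.75 RPKM over the 12 samples. All groups overlapped, 19.8% of its variance lay between groups, and no comparison was called.

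Since p23 works with Hsp90, 20 genes of Hsp90, its relatives, its co-chaperones, and the Hsp70 system (*Hspa8* and *Dnajb1*) were chosen. The choice was made with earlier results of these data known. The counts and medians of the 20 are therefore no independent test of a rise together with *Ptges3*. Against scramble, 8 were higher and none lower in *ptgs2*-KO cells and 9 higher and none lower in *ptges*-KO cells, where 11.1% and 26.3% of all genes were called in either direction. Their medians on the log2 scale were 0.23 and 0.21, beside 0.01 and -0.03 over all genes tested. In *ptgs1*-KO cells 1 was higher and 1 lower, with a median of -0.03 beside 0.01; other scalings gave 1 higher and 3 to 5 lower there. Median ratio scaling gave 10 higher and 1 lower in *ptgs2*-KO and 11 higher and 0 lower in *ptges*-KO cells, scaling without the 20 highest genes 9 and 1, and 7 and 2, and quantile normalization 9 and 1, and 6 and 1. The count in *ptgs2*-KO cells fell to 3 without scramble replicate 2 or 3 and to 4 without scramble replicate 1 or *ptgs2*-KO replicate 2, with medians of 0.22 to 0.26. It was 5 without *ptgs2*-KO replicate 3. *Hsp90ab1*, the constitutive Hsp90, had log2 fold changes of 0.44 and 0.58 in *ptgs2*-KO and *ptges*-KO cells (limma adjusted p = 0.0183 and 0.00172), and the inducible *Hsp90aa1* 0.36 and 0.40 (0.00927 and 0.00205). *Hspa8*, the constitutive Hsp70, was also higher in both, by 0.35 and 0.56. The calls of *Hsp90ab1* in both lines and of *Hsp90aa1* and *Hspa8* in *ptges*-KO cells were lost under quantile normalization, and in *ptgs2*-KO cells *Hsp90ab1*, *Hspa8*, and *Hsp90aa1* were lost without 1 sample in 4, 7, and 1 of the 12 cases. *Ppid*, a peptidyl-prolyl isomerase bound to Hsp90, was higher in both, by 0.39 and 0.50, and lower in *ptgs1*-KO cells (-0.47, limma adjusted p = 0.00277). Both comparisons share the scramble samples.

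**Figure D3:**
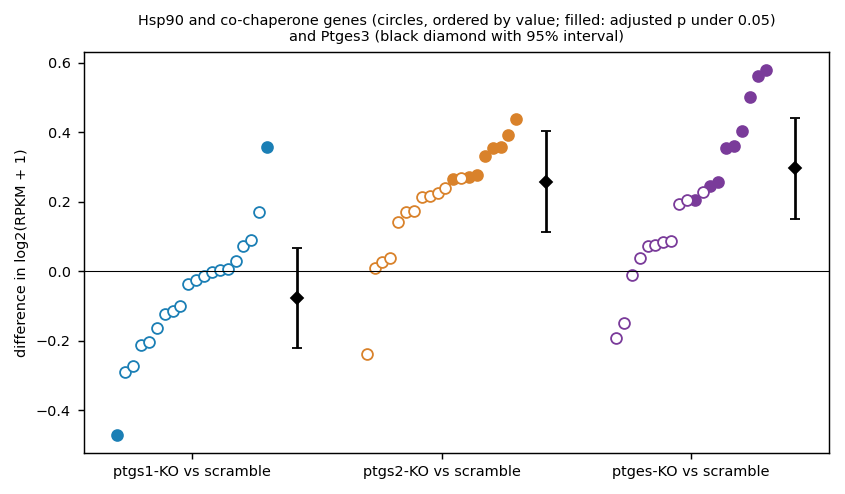
Log2 fold change on log2(RPKM + 1) against scramble of 20 genes of Hsp90, its relatives, its co-chaperones, and the Hsp70 system, and of *Ptges3* (diamond, 95% interval). The 20 genes are circles ordered by value, filled where the limma adjusted p was under 0.05. The 8 and 9 filled circles of *ptgs2*-KO and *ptges*-KO cells all lie above 0, as does *Ptges3* at 0.26 and 0.30, while *ptgs1*-KO cells have 1 filled circle on each side.

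Of the phospholipases, *Pla2g4a* codes for cytosolic phospholipase A2 alpha, which prefers arachidonic acid, and *Pla2g6* for a calcium-independent phospholipase A2. *Pla2g4a* lies on chromosome 1 from 149829618 to 149961290, 139 kb from *Ptgs2*, with no coding gene between them. It was at 107.54, 106.13, and 109.57 RPKM in scramble and at 134.76, 133.23, and 128.28 RPKM in *ptges*-KO samples, which were the 3 highest of all 12. *Pla2g4a* rose by 0.29 on the log2 scale (standard error 0.06, limma adjusted p = 0.00548), to 1.23 times the scramble mean. *Pla2g4a* was at 102.35, 97.07, and 99.78 RPKM in *ptgs2*-KO samples, in which its edited neighbour *Ptgs2* was lowest. These lay just below the scramble samples and were not called (log2 fold change -0.11, 95% interval -0.25 to 0.03). In *ptgs1*-KO samples it was at 110.57, 116.18, and 103.03 RPKM and overlapped scramble.

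*Pla2g6* was at 2.01, 1.73, and 0.77 RPKM in scramble, 2.48, 2.61, and 1.47 RPKM in *ptgs1*-KO samples. It was at 1.87, 1.74, and 1.28 RPKM in *ptgs2*-KO samples and at 1.08, 0.70, and 0.85 RPKM in *ptges*-KO samples. Scramble replicate 3 stood with the *ptges*-KO samples, and no knockout was called against scramble. Without that sample the *ptges*-KO cells were called lower (limma adjusted p = 0.0359).

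For transport, *Abcc4* codes for MRP4, which exports prostaglandins, and *Slco2a1* for the transporter that takes them up. *Abcc4* was at 13.35 to 24.90 RPKM over the 12 samples with overlap among all 4 groups, and its highest sample was a scramble sample. The log2 fold change against scramble was -0.08 (95% interval -0.47 to 0.31) in *ptgs1*-KO, 0.06 (-0.33 to 0.45) in *ptgs2*-KO, and -0.26 (-0.65 to 0.13) in *ptges*-KO cells. *Slco2a1* was at 1.16 to 2.14 RPKM, with the highest sample in *ptgs1*-KO cells. Its log2 fold change was 0.19 (95% interval -0.10 to 0.49), 0.12 (-0.18 to 0.42), and -0.0021 (-0.30 to 0.29) in the 3 knockouts.

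**Figure D4:**
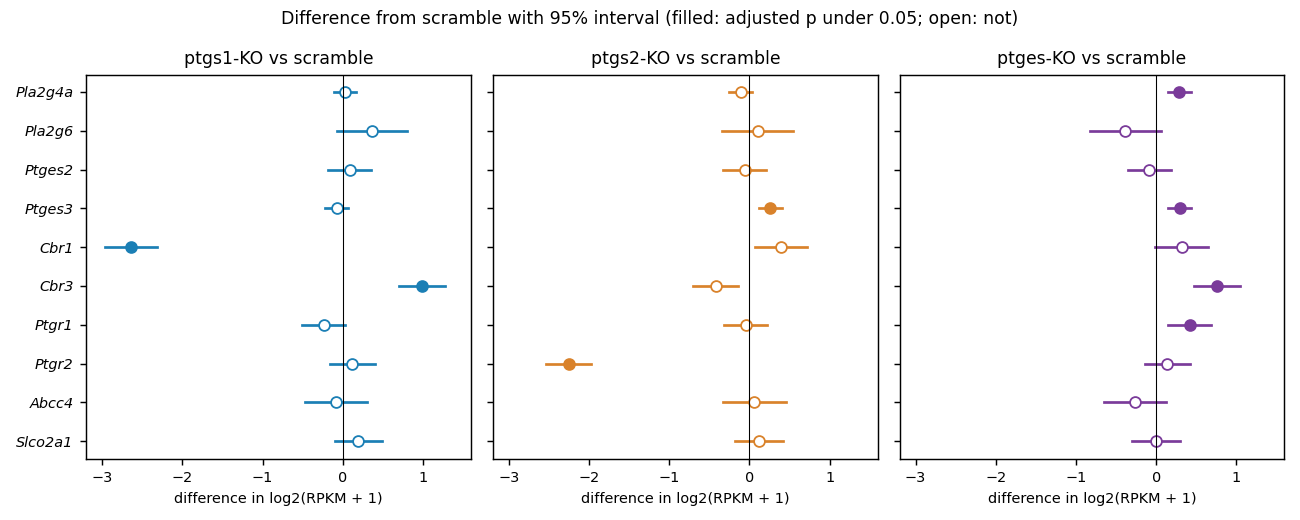
Log2 fold change on log2(RPKM + 1) of each gene in each knockout against scramble, with the 95% interval of limma; filled points had an adjusted p under 0.05. *Cbr1* in *ptgs1*-KO (-2.65) and *Ptgr2* in *ptgs2*-KO cells (-2.25) lie far to the left, and the 4 filled points of *ptges*-KO cells all lie to the right of 0.

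The knockout lines were also compared with each other. Between *ptges*-KO and *ptgs2*-KO cells, 4 of the 10 genes were called, against 16.6% of all genes, and *Pla2g4a* (0.40), *Cbr3* (1.18), *Ptgr1* (0.46), and *Ptgr2* (2.39 on the log2 scale) were all higher in *ptges*-KO cells, a direction called in 6.76% of all genes. Their limma adjusted p was 0.000871, 4.23e-05, 0.0227, and 3.95e-08. The call of *Ptgr1* was lost without *ptges*-KO replicate 2 or 3 or *ptgs2*-KO replicate 1, with only the 2 groups in the model, or in the Tukey test. *Ptges3* was not called, with a log2 fold change of 0.04 (95% interval -0.11 to 0.18). Between *ptges*-KO and *ptgs1*-KO cells 5 were called, against 30.2% of all genes. *Pla2g4a* (0.26), *Ptges3* (0.37), *Cbr1* (2.96), and *Ptgr1* (0.66) were higher in *ptges*-KO cells and *Pla2g6* lower (-0.75, limma adjusted p = 0.0147). The call of *Pla2g6* was lost without *ptges*-KO replicate 2 or *ptgs1*-KO replicate 1 or 2, under quantile normalization, or in the Tukey test, and that of *Pla2g4a* with only the 2 groups in the model. Between *ptgs2*-KO and *ptgs1*-KO cells 4 were called, against 23.6% of all genes, with *Ptges3* (0.33) and *Cbr1* (3.04) higher and *Cbr3* (-1.41) and *Ptgr2* (-2.37) lower in *ptgs2*-KO cells.

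Other genes of the pathway outside these 10 were counted by role, beside 9.26%, 11.1%, and 26.3% of all genes called in either direction for the knockouts of *ptgs1*, *ptgs2*, and *ptges*. Of 14 further genes of phospholipases, lipases, and their regulators tested, 1 was higher and 0 lower in *ptgs1*-KO, 1 higher and 3 lower in *ptgs2*-KO, and 0 higher and 3 lower in *ptges*-KO cells, with medians of -0.05, -0.06, and -0.18 beside 0.01, 0.01, and -0.03 over all genes. The gene higher in *ptgs2*-KO cells was *Plaa*, which codes for an activating protein and no lipase (0.33). In *ptges*-KO cells median ratio scaling gave 2 higher and 3 lower, quantile normalization 2 and 4, and scaling without the 20 highest genes 0 and 6. *Pla2g15*, the lysosomal phospholipase A2, was lower in *ptgs2*-KO (-0.96) and *ptges*-KO cells (-0.97; limma adjusted p = 0.000332 and 0.000139). *Faah*, which hydrolyzes anandamide, was lower in *ptgs2*-KO cells (-0.65), at a mean of 0.67 RPKM against 1.62 in scramble cells. The diacylglycerol lipases *Dagla* (-0.55) and *Daglb* (-0.35) were lower in *ptges*-KO cells. The call of *Dagla* was lost without *ptges*-KO replicate 2, and that of *Daglb* without any 1 scramble sample or *ptges*-KO replicate 2 or 3. Of 12 genes listed for the return of arachidonic acid to membranes, 10 passed the filter on low values. Which fatty acid each enzyme uses in these cells was not tested. Of the 10, 2, 1, and 2 were lower in the same 3 knockouts and none higher, with medians of -0.01, -0.03, and -0.19. *Acsl6* and *Mboat2* did not pass. *Mboat2* had means of 0.573 RPKM in scramble, 0.207 in *ptgs1*-KO, 0.46 in *ptgs2*-KO, and 1.94 in *ptges*-KO cells, and this rise was not tested. In *ptges*-KO cells other scalings gave 1 higher and 3 lower (median ratio), 1 and 4 (quantile), and 0 and 5 (without the 20 highest genes). *Lpcat3*, an acyltransferase that favors arachidonoyl-CoA, was lower in *ptgs2*-KO (-0.46) and *ptges*-KO cells (-0.49), *Lpcat1* in *ptgs1*-KO (-0.42) and *ptges*-KO cells (-0.54), and *Lpcat2* in *ptgs1*-KO cells (-0.37). Both calls in *ptgs1*-KO cells stood at the threshold (limma adjusted p = 0.0498 and 0.0407) and were lost without any 1 scramble sample.

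Of 13 other prostanoid synthases and ketoreductases found, 8 passed the filter on low values. The PGD2 synthases *Ptgds* and *Hpgds*, the PGI2 synthase *Ptgis*, and the thromboxane synthase *Tbxas1* did not, with group means of at most 0.18 RPKM. Of the 8 tested, 2 were higher in *ptgs1*-KO, 2 lower in *ptgs2*-KO, and 1 higher and 3 lower in *ptges*-KO cells. Of all genes tested, 9.26%, 11.1%, and 26.3% were called in these knockouts. The medians of the 8 were 0.00, -0.09, and -0.43. The third carbonyl reductase, *Cbr2*, rose in *ptgs1*-KO cells (0.63, limma adjusted p = 0.0155), as *Cbr3* did. It fell in *ptges*-KO cells (-0.57, limma adjusted p = 0.0119), where *Cbr3* rose, and in *ptgs2*-KO cells (-0.76). The means of *Cbr2* were low, at 1.12 RPKM in scramble, 2.27 in *ptgs1*-KO, 0.243 in *ptgs2*-KO, and 0.423 in *ptges*-KO cells. The call in *ptgs1*-KO cells was lost without scramble replicate 2 or 3 or *ptgs1*-KO replicate 1, and that in *ptges*-KO cells without scramble replicate 1. The aldo-keto reductases *Akr1c14* (0.66 in *ptgs1*-KO, -0.77 in *ptges*-KO), *Akr1b10* (-0.40 in *ptgs2*-KO, -0.79 in *ptges*-KO), and *Akr1b3* (0.36 in *ptges*-KO) were the others named by size; the call of *Akr1b10* in *ptgs2*-KO cells was lost without any 1 scramble sample or *ptgs2*-KO replicate 1 or 3.

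Of 15 further genes of prostaglandin breakdown and transport, 6 passed the filter on low values, and *Hpgd* did not. Of those 6, 1 was higher and 1 lower in *ptgs1*-KO, 0 were called in *ptgs2*-KO, and 1 was higher and 2 lower in *ptges*-KO cells. Of all genes tested, 9.26%, 11.1%, and 26.3% were called in these knockouts. The medians of the 6 were -0.02, -0.03, and -0.01. The organic anion transporter *Slco1a5* was higher in *ptges*-KO cells (1.14, limma adjusted p = 0.000156). Its mean was 4.12 RPKM there and 1.33 RPKM in scramble cells. The exporters *Abcc5* (-0.45 in *ptgs1*-KO, -0.53 in *ptges*-KO) and *Abcc10* (-0.49 in *ptges*-KO) were lower. Whether *Abcc5* and *Abcc10* carry prostaglandins was not tested. *Zadh2*, which codes for a further 15-keto prostaglandin reductase, was higher in *ptgs1*-KO cells (0.28, limma adjusted p = 0.0405). The call of *Zadh2* was lost in 9 of the 12 cases of 1 sample left out, among them each scramble sample. That of *Abcc5* in *ptgs1*-KO cells was lost without scramble replicate 3 or *ptgs1*-KO replicate 1, and that of *Abcc10* under quantile normalization and without scramble replicate 1 or 2 or *ptges*-KO replicate 2 or 3. Of 19 genes of the leukotriene and epoxide branch, only 3 passed the filter on low values. Among those that did not, *Alox5*, *Alox5ap*, and *Ltc4s* had group means of at most 0.017, 0.17, and 0 RPKM. Of the 3 tested, *Ephx1*, an epoxide hydrolase, was lower in *ptgs1*-KO cells (-0.38). *Lta4h*, which makes leukotriene B4, was higher in *ptges*-KO cells (0.28, limma adjusted p = 0.0436). The medians of the 3 genes were 0.07, -0.06, and 0.17 in the 3 knockouts. The call of *Ephx1* was lost without scramble replicate 1 or 2, and that of *Lta4h* without any 1 scramble or *ptges*-KO sample and after scaling without the 20 highest genes.

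*Cbr1*, *Cbr3*, and *Ptgr1* are also known as genes that the stress factor NRF2 can induce. Of 21 other NRF2 target genes tested, 2 were higher and 2 lower in *ptgs1*-KO, 4 higher and 1 lower in *ptgs2*-KO, and 2 higher and 2 lower in *ptges*-KO cells. Of all genes tested, 9.26%, 11.1%, and 26.3% were called in these knockouts in either direction. The medians of the 21 were -0.03, 0.04, and -0.0028, beside 0.01, 0.01, and -0.03 over all genes. Median ratio scaling and quantile normalization both gave 6 higher and 2 lower in *ptges*-KO cells, and the 4 higher in *ptgs2*-KO cells became 1 without scramble replicate 1 or *ptgs2*-KO replicate 1 or 3. With 1 sample left out the higher genes ranged from 1 to 6 in *ptgs2*-KO and from 1 to 5 in *ptges*-KO cells. *Nqo1*, a quinone reductase, was lower in all 3 knockouts (-0.32, -0.58, and -0.59), *Slc7a11* and *Gstm1* were higher in *ptgs1*-KO cells (0.59 and 0.57), and *Gclm* was higher in *ptgs2*-KO cells (0.56). In *ptgs1*-KO cells the calls of *Nqo1* and *Slc7a11* were each lost in 3 of the 12 cases of 1 sample left out. In the 300-base RefSeq windows the core TGACNNNGC of the antioxidant response element, searched on both strands, occurred for *Abcc4* and *Ptges3* and in 12.4% of all windows. The letters GAANNTTC, a pair of heat shock element units, occurred for *Cbr3*, *Pla2g6*, and *Ptges2* and in 7.86% of windows, and CACGTG, an E-box, for *Abcc4* and *Ptges2* and in 7.15%. The cAMP response element TGACGTCA occurred in none of the 10 genes' windows and in 1.79% of all.

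For the 3 genes whose group means spanned at least 1 on the log2 scale, the genes with the most similar pattern were named by Pearson's r of log2(RPKM + 1) over the 12 samples. These samples fall into 4 groups, so r is mostly a likeness of group means. For *Cbr1* they were *Fam132b* (r = 0.988), *Fgfr1op2* (r = 0.987), and the edited gene *Ptgs1* (r = 0.983), with *Fam132b* at 18.8 RPKM in scramble and 0.02 RPKM in *ptgs1*-KO cells. For *Ptgr2* they were the edited gene *Ptgs2* (r = 0.982), *5730409E04Rik* (r = 0.981), and *Eng* (r = 0.971), with *Eng* at 52.9 RPKM in scramble and 0.84 RPKM in *ptgs2*-KO cells. For *Cbr3* they were *Mettl7b* (r = 0.970), *Tshz3* (r = 0.965), and *Sox12* (r = 0.954), and *Tshz3* had means of 7.05 RPKM in *ptgs1*-KO, 4.96 in *ptges*-KO, 0.41 in scramble, and 0.143 in *ptgs2*-KO cells.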

How the data were processed

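RNA-seq of 12 cell samples was analyzed. The authors deposited RPKM values to 2 decimals, 1 column per sample, made from 101 bp paired-end reads; the legends of the study name the unit, the submitters' processing notes name the build mm10, and the aligner, counter, and strand setting are not given in the sources used here. Because RPKM depends on the total, genes with very high values can shift all others. Groups came from the sample labels. Values were tested as deposited in R 4.3.3 with limma 3.58.1 (lmFit, eBayes with trend) on log2(RPKM + 1), for genes whose mean reached 1 RPKM, all 12 samples in the model, Benjamini-Hochberg over 11282 genes, at a threshold of 0.05. The steps were tested on simulated data. Depth was estimated in Python 3.11.15 from the step of value times transcript length in short genes of GENCODE M21, and was least sharp in *ptgs1*-KO replicate 1; read numbers are therefore approximate, and their exact intervals are Clopper-Pearson at 95%. Figures were drawn with matplotlib 3.10.9. No measured column was left out.

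The 10 genes and all lists were chosen with earlier results of these data known. Named from a list were at most 4 genes, those called against scramble with the largest absolute log2 fold change. The 3 genes of most similar pattern were named for each of the 10 that passed the F test and spanned at least 1 between group means. Chromosomal neighbours were named after their values were seen, and the counts of list genes under other scalings or without a sample were added then. Protein sequences were not used here.

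Samples carry replicate numbers. In the pair *ptges*-KO and *ptgs2*-KO, deviations of same-numbered samples from their group means correlated across genes at 0.112 to 0.566. In the other 5 pairs of groups at least 1 correlation was under 0.1. Against scramble the correlations were -0.341 to -0.175 for *ptges*-KO and -0.276 to -0.119 for *ptgs2*-KO. No label says that the numbers mark a batch. The block by replicate number was fitted over all 12 samples and not to 1 pair of groups. The alternatives were the pseudocount, the filter, 3 other scalings, the block, 2 groups only, no trend, a Tukey test, a fold limit, and each sample left out.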

Additional observations from a re-analysis of the deposited data

How the results depend on the processing

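Of the 21 calls of 1 of the 10 genes in 1 of the 6 comparisons, 16 were kept under every alternative that tested the gene other than the limit on the fold change, whose counts follow, among them all those of *Cbr1*, *Cbr3*, and *Ptgr2*. The other 5 were each lost under at least 1 alternative (*Pla2g4a* and *Pla2g6* in *ptges*-KO against *ptgs1*-KO, *Ptges3* in *ptgs2*-KO against scramble, and *Ptgr1* in *ptges*-KO against scramble and against *ptgs2*-KO), and none changed sign; the cause was not tested. In the order *ptgs1*-KO, *ptgs2*-KO, and *ptges*-KO against scramble, *ptges*-KO against *ptgs2*-KO, *ptges*-KO against *ptgs1*-KO, and *ptgs2*-KO against *ptgs1*-KO, a filter at a mean of 10 RPKM, which leaves 4 of the 10 genes, called 0, 1, 2, 1, 2, and 1 of them, and 2 over the 4 groups, with 582 genes in all for *ptgs1*-KO. A limit of 1 on the absolute log2 fold change left 1, 1, 0, 2, and 1 of the 10 genes in the first 5 comparisons and 140, 111, 219, 195, 361, and 278 of all genes. A Tukey test on untransformed values called 361, 420, 1151, 639, 1590, and 1300 of all genes. Median ratio scaling called 1961 genes for *ptgs2*-KO and quantile normalization 1570 for *ptgs1*-KO against scramble. Among differences that were not called, the sign turned for *Slco2a1* in *ptges*-KO against scramble (0.021 by median ratio, 0.18 by quantile), *Ptges2* in *ptges*-KO against *ptgs2*-KO (0.021 and 0.016), *Ptgr1* in *ptgs2*-KO against scramble (0.077 by quantile), *Slco2a1* in *ptgs2*-KO against *ptgs1*-KO (0.012 by quantile), *Ptges3* in *ptges*-KO against *ptgs2*-KO (-0.013 by quantile, -0.016 without the 20 highest genes), and *Ptgr2* in *ptges*-KO against *ptgs1*-KO (-0.041 without the 20 highest genes). Other scalings moved the share of higher genes among all calls from 43.8% to 30.4% (without the 20 highest genes), 53.7% (median ratio), and 52.4% (quantile) in *ptges*-KO against *ptgs1*-KO and from 40.7% to 28.4% (without the 20 highest genes) and 51.6% (median ratio) in *ptges*-KO against *ptgs2*-KO cells. With each sample left out in turn, all genes called ranged from 645 to 1163, 722 to 1559, and 1936 to 3282 in the 3 knockouts against scramble and from 1104 to 2236 in *ptges*-KO against *ptgs2*-KO, and 1 to 3 of the 10 genes were called in *ptgs2*-KO against scramble. Of the differences that were not called and turned in sign with a sample left out, the log2 fold change ranged from -0.045 to 0.22 for *Abcc4* in *ptgs2*-KO against scramble, from -0.033 to 0.025 for *Slco2a1* in *ptges*-KO against scramble, from -0.21 to 0.081 for *Abcc4* in *ptgs1*-KO against scramble, from -0.13 to 0.25 for *Pla2g6* in *ptgs2*-KO against scramble, from -0.0077 to 0.18 for *Ptges2* in *ptgs1*-KO against scramble, from -0.083 to 0.096 for *Ptgr2* in *ptges*-KO against *ptgs1*-KO, from -0.20 to 0.071 for *Slco2a1* in *ptgs2*-KO against *ptgs1*-KO, from -0.013 to 0.072 for *Pla2g4a* in *ptgs1*-KO against scramble, from -0.021 to 0.27 for *Abcc4* in *ptgs2*-KO against *ptgs1*-KO, from -0.13 to 0.083 for *Ptges2* in *ptgs2*-KO against scramble, and from -0.17 to 0.043 for *Ptges2* in *ptges*-KO against *ptgs2*-KO. The replicate block called 2, 3, 4, 4, 5, and 4 of the 10 genes; it added *Cbr3* in *ptgs2*-KO against scramble (limma adjusted p = 0.0468) and changed no call of the 10 genes in *ptges*-KO against *ptgs2*-KO, where it raised all calls from 1873 to 2011. What the replicate numbers mark is not given. Among the samples of other groups, 5 of 12 samples correlated best with a sample of their own number. In every other group 1 of the 3 samples bears that number, so some such matches arise without a link, and the count was not tested. The depth limits *Cbr3*, with a median of 42 reads, and *Pla2g6*, with 78.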
